A study of Homo sapiens with 12 samples.

Results

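ABC transporters are membrane proteins that use ATP to move lipids, drugs, metal complexes and peptides across membranes, and the account below covers their mRNA in A375, an established human melanoma cell line. Members were the genes whose symbol is ABC, a subfamily letter from A to G and a number, and 42 of the 4918 genes analysed met that rule. Subfamily A held 12 of them, B 9, C 9, D 4, E 1, F 3 and G 4. The rule used symbols only and no measured value. Of 45 protein-coding genes with such symbols in RefSeq, 3 (ABCC9, ABCC12 and ABCG8) were not analysed here. The genes analysed run in alphabetical order from A1BG to FAM46B. This leaves out the peptide transporters TAP1 and TAP2 but does not account for those 3. There were 4 groups of 3 samples, all of A375 cells collected after 24 h. The Control samples are labelled as untreated, although the treatment protocol also speaks of vehicle. The second group received SB-3CT, an inhibitor of the matrix metalloproteinases MMP2 and MMP9. The third received IFN-γ, an inflammatory cytokine, and the fourth received SB-3CT+IFN-γ. The labels give no dose and do not say whether the 3 samples of a group came from separate cultures. The study describes its cell experiments as independent repeats, without giving how each RNA sample was obtained. The p-values measure the spread between these samples. One cell line is a model of 1 tumour, and in bulk RNA a change in every cell cannot be told apart from a change in the share of cells that express a gene.

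A full ABC transporter joins a pair of ATP-binding domains to a pair of membrane domains, whereas a dimeric transporter is built from units that carry 1 of each. Subfamily A and part of subfamily G export sterols and phospholipids, with ABCA1 loading cholesterol onto apolipoprotein A-I. Subfamilies B, C and G include the drug pumps that made the family known in oncology (ABCB1, ABCC1 and ABCG2), and subfamily B also holds dimeric transporters of mitochondria and lysosomes. Subfamily D serves peroxisomes and lysosomes. Subfamilies E and F have the ATP-binding domains without membrane domains and act on ribosomes. In melanoma the drug pumps and ABCB5 have been studied mostly for resistance to therapy.

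Levels are given as FPKM, fragment numbers corrected for transcript length and for the total mapped in each sample, which can be compared between genes. Changes are differences of group means of log2(FPKM + 1), the deposited scale, on which a change of a gene with low FPKM is understated. A gene was called where the limma p-value, adjusted over all 4918 genes, was under 0.05. Each change is also given after median-ratio scaling, which divides each sample by its median ratio to the mean profile of the 12. This mattered because the median change of the 3177 genes that averaged 1 FPKM or more was -0.03 with SB-3CT and -0.04 with IFN-γ, each against control, but -0.20 for SB-3CT+IFN-γ against IFN-γ and -0.21 against SB-3CT. After scaling these medians lay between 0.00 and 0.02. The absolute depth is unknown, and the relative depth of the samples ran from 87.1% to 150.1% of the control mean. The IFN-γ label was borne out by CXCL10, an IFN-γ-induced chemokine, which lay between 78.7 and 86.2 FPKM with IFN-γ, between 96.5 and 122 with SB-3CT+IFN-γ and at 0.05 or less elsewhere. CD274, which encodes PD-L1, averaged 0.543 ± 0.105 FPKM in the controls and 21.7 ± 2.32 with IFN-γ (SD, n = 3). Of 10 melanocyte and melanoma markers, CSPG4 (26.3 to 49.0 FPKM), ERBB3 (29.0 to 57.8) and CD63 (596 to 728) were high. EDNRB, BCAN and CDH19 lay between 1.55 and 6.81, and APOD did not exceed 1.40. Lowest were DCT, a pigment enzyme, at 0.384 or less, CAPN3 at 0.322 or less and BIRC7 at 0.567 or less. Another 4 markers, of undifferentiated melanoma, summed to between 160.0 and 163 FPKM with SB-3CT+IFN-γ and to between 194 and 237 in the other groups, and the part of that shift in the results below was not tested. The 7 markers measured for T, B, endothelial and epithelial cells did not exceed 0.577 FPKM, and of 3 myeloid markers CD14 and CSF1R did not exceed 0.434, while the lysosomal CD68 lay between 19.8 and 31.6.

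The stretches before the start sites of 4 members are printed because the changes of these genes recur in the comparisons below: ABCA1 and ABCA10 fell with either agent, ABCB1 rose with IFN-γ and ABCE1 fell with SB-3CT. Each line gives the 250 bases before a RefSeq start (build GRCh38.p14), read 5′ to 3′ on the strand of the gene, with matches to any of 6 searched motifs in capitals.
ABCA1, chr9:104928156-104928405, minus strand: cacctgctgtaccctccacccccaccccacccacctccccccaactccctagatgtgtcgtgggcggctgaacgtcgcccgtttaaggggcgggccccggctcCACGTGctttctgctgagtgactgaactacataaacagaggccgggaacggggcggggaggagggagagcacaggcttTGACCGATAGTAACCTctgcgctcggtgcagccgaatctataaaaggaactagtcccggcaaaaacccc
ABCA10, chr17:69244849-69245098, minus strand: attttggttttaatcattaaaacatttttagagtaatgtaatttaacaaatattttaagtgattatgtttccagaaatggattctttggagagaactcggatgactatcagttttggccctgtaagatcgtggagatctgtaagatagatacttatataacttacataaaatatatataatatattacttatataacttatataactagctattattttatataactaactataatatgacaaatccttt
ABCB1, chr7:87600885-87601134, minus strand: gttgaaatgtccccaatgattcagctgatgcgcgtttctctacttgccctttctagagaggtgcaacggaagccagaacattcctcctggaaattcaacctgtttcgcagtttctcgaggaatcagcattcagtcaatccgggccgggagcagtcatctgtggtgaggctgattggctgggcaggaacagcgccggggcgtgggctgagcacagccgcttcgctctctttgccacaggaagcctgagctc
ABCE1, chr4:145098061-145098310, plus strand: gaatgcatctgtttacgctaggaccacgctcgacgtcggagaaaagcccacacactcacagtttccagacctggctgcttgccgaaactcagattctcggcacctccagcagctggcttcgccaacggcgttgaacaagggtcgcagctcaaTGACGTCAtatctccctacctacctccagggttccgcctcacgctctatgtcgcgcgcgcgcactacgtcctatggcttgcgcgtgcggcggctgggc

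The motifs were chosen after changes had been seen and were searched on both strands in windows of 300 bases, from 250 before to 50 after each start. The ABCA1 window held the E-box CACGTG, found in 7.25% of all 35097 windows, and the direct repeat read by the liver X receptors, found in 0.094%. That repeat, the second run of capitals, was found in no window of another member. Its pattern, whose letters are not printed here, allowed other letters where the ABCA1 site departs from an exact repeat. The ABCA1 match, its rarity and its absence elsewhere were therefore partly set by the pattern, and nothing is concluded from them. The ABCE1 window held the cyclic AMP response element TGACGTCA, found in 1.85% of windows and in no other member. Neither the printed ABCA10 and ABCB1 stretches nor the second RefSeq window of each gene held a match. The IFN-γ-activated site TTCNNNGAA (7.66% of windows) was found for ABCC5 and ABCG2, the interferon-stimulated response core GAAANNGAA (8.11%) for ABCA9, ABCC2, ABCD2 and ABCG2, and the antioxidant response core TGACNNNGC (13.3%) for 12 members. Windows were at hand for 32 of the 42 members, 48 windows in all, so a share of windows cannot be set against a count of members. Of these 48 windows, 12 held the antioxidant response core and 9 the E-box. Overlapping windows of ABCG2 held the same E-box, so the 9 windows hold fewer than 9 separate sites. A match describes letters only, and the lack of one says nothing about a factor.

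Subfamilies B to F held most of the summed ABC level of these cells. Of the 42 members, 19 averaged 1 FPKM or more over the 12 samples (45.2%, against 64.6% of all genes analysed) and 6 had at least 10. Among these were ABCE1 (mean 21.3 FPKM), ABCF2 (19.4), ABCB9 (18.0), ABCF3 (16.6) and ABCD3 (14.9). The median member stood at 0.790 FPKM and the median gene at 3.44. By subfamily, such an average was reached by 1 of 12 members of A, 5 of 9 of B, 6 of 9 of C, 3 of 4 of D, the 1 member of E, 2 of 3 of F and 1 of 4 of G. In the controls the summed level was 52.2 ± 1.72 FPKM for B, 38.0 ± 1.54 for F, 34.6 ± 0.804 for C, 31.4 ± 1.05 for D, 26.6 ± 0.791 for E, 9.80 ± 0.289 for A and 1.92 ± 0.128 for G (SD, n = 3). The sum over all 42 members was 195 ± 4.38 FPKM in Control samples, 195 ± 5.24 with SB-3CT, 182 ± 11.7 with IFN-γ and 150.4 ± 1.33 with SB-3CT+IFN-γ. The 3 samples of the last group lay below the other 9, while the summed FPKM of the whole table ran from 121928 to 129692 per sample and was highest in that group. Members had long transcripts, with a median of 5263 bases against 2957 over all genes and 7071.5 in subfamily A. The plot of levels in each sample shows the spread within each subfamily.

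**Figure D1:**
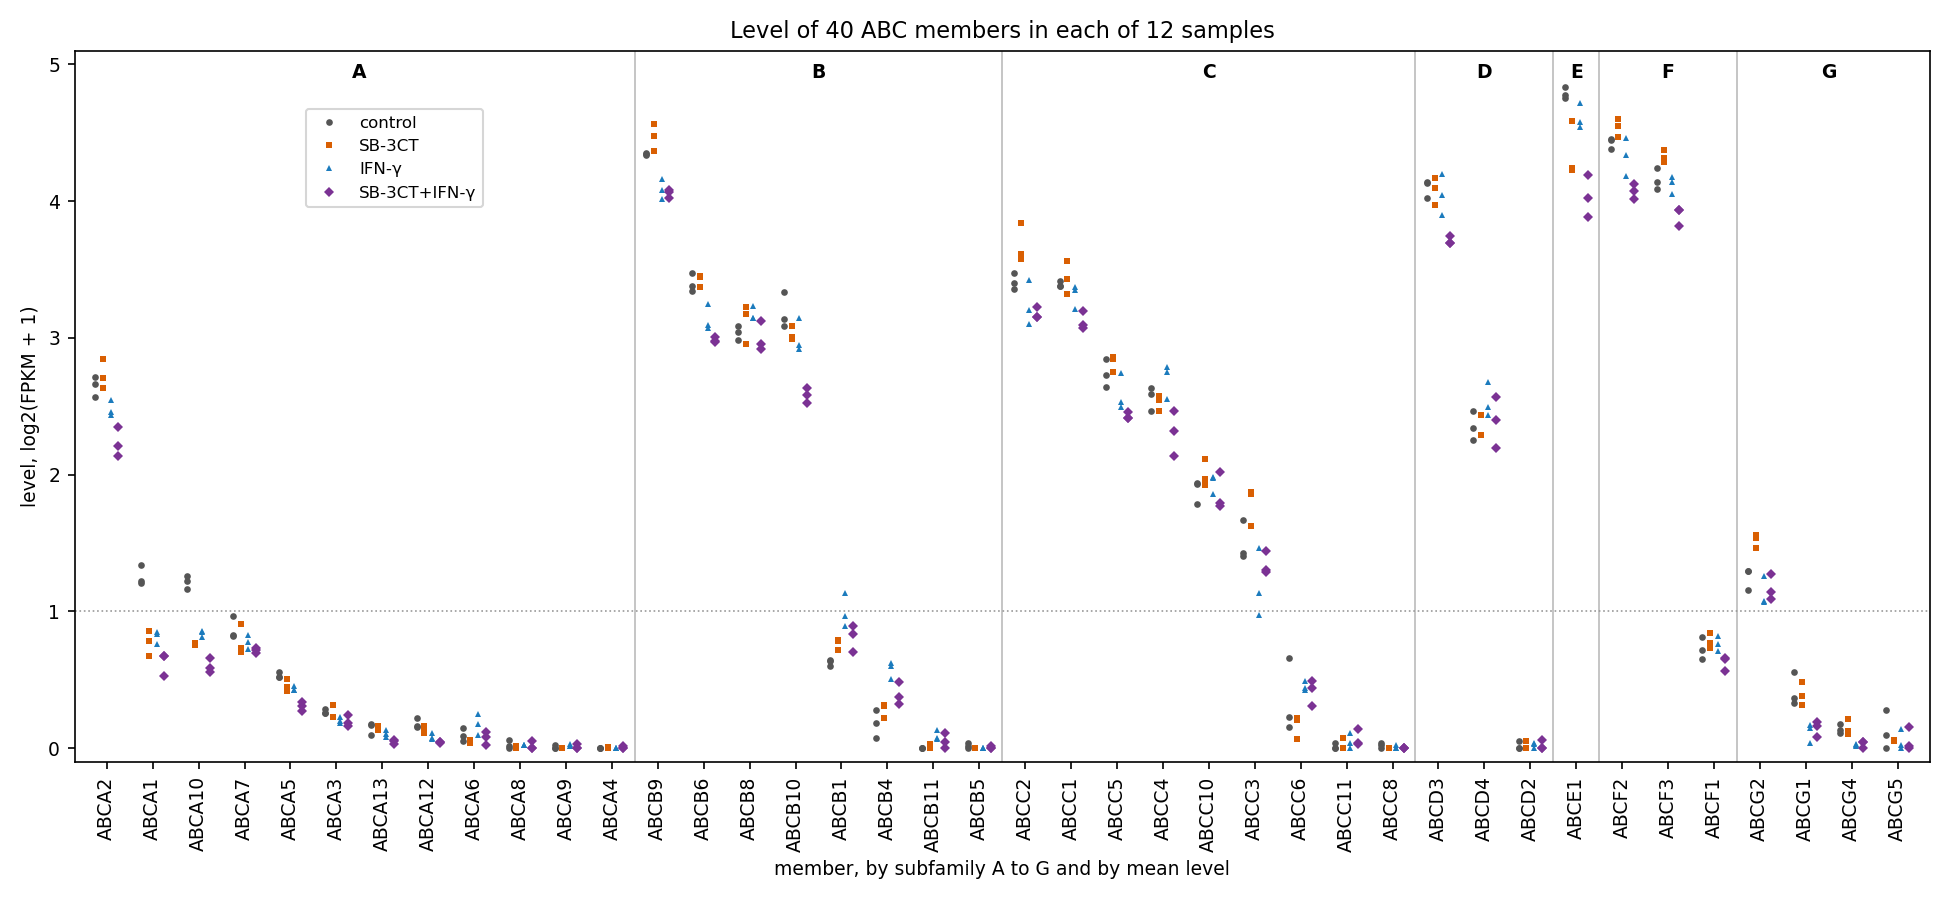
Level of 40 members in each of the 12 samples, as log2(FPKM + 1) on the vertical axis, with members ordered by subfamily and mean level and 1 point per sample coloured by group; the dotted line marks 1 FPKM. ABCE1, ABCF2 and ABCB9 had the highest means over the 12 samples, and all of subfamily A except ABCA2 lay near or under the line.

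As deposited, SB-3CT alone left nearly all members uncalled: 0 rose and 3 fell (ABCA1, ABCA10 and ABCE1), where 5.37% of all genes rose and 6.87% fell. The limma count of 0 stood against 5 members higher at an unadjusted p under 0.05 and 0 by the per-gene equal-variance test with adjustment. After scaling the same 3 fell and 3 rose (ABCC2, ABCF3 and ABCG2), against 7.36% of all genes higher and 6.47% lower. With IFN-γ against control, 4 members rose (ABCB1, ABCB4 and ABCB11 among them) and 6 fell (ABCA1, ABCA10, ABCB6, ABCB9, ABCG1 and ABCG4), against 8.46% and 11% of all genes. Scaling kept these 10 and added 1 rise (ABCB8) and 1 fall, with 12.1% of all genes then higher and 10.2% lower. The shares of members called in these comparisons were near those of all genes. The comparisons with control use the same 3 control samples, so their values are set side by side only.

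The members fell broadly in SB-3CT+IFN-γ, but so did the genes as a whole. Against IFN-γ, 0 members rose and 11 fell, 26.2% of them, where 6.41% of all genes rose and 31.5% fell. By limma at an unadjusted p under 0.05 and by the per-gene test with adjustment, 0 members rose as well. After scaling 1 rose (ABCB9) and 1 fell (ABCE1), with 16.5% of all genes higher and 15.5% lower. Against SB-3CT, 1 member rose (ABCC6) and 20 fell, 47.6% of them, where 7.85% of all genes rose and 32.7% fell. After scaling 2 rose (ABCC6 among them) and 8 fell (ABCA12, ABCA13, ABCB6, ABCB10, ABCC2, ABCF2, ABCF3 and ABCG1), with 13.7% of all genes higher and 10.2% lower. Members were low more often than all genes, so counts as deposited are also given at a mean of 1 FPKM or more. Against SB-3CT, 13 of 19 such members and 1411 of 3177 such genes fell, with median changes of -0.37 and -0.21. Against IFN-γ, 7 of 19 and 1358 of 3177 fell, with medians of -0.19 and -0.20. These differences were not tested. Transcript length moved with the change against IFN-γ: among genes averaging 1 FPKM or more, the 1050 shortest had a median change of 0.03 and the 1052 longest one of -0.39. Against SB-3CT the same sets had medians of -0.07 and -0.30. With the trend of each sample with length removed, 5 members were higher than with IFN-γ alone (ABCB9, ABCC1, ABCC2, ABCC3 and ABCC5) and none was called lower by limma, where 9.46% of all genes were higher and 9.07% lower. Across the 19 members at or above that average the rank correlation between length and change was 0.05, against -0.61 across 3154 genes. With the trend removed these correlations were 0.50 and -0.01, so the removal gave the 19 members a trend with length that they had lacked. Its part in the 5 rises was not tested, and the part of length in single members was not tested beyond this. The plot of changes sets both scales side by side.

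**Figure D2:**
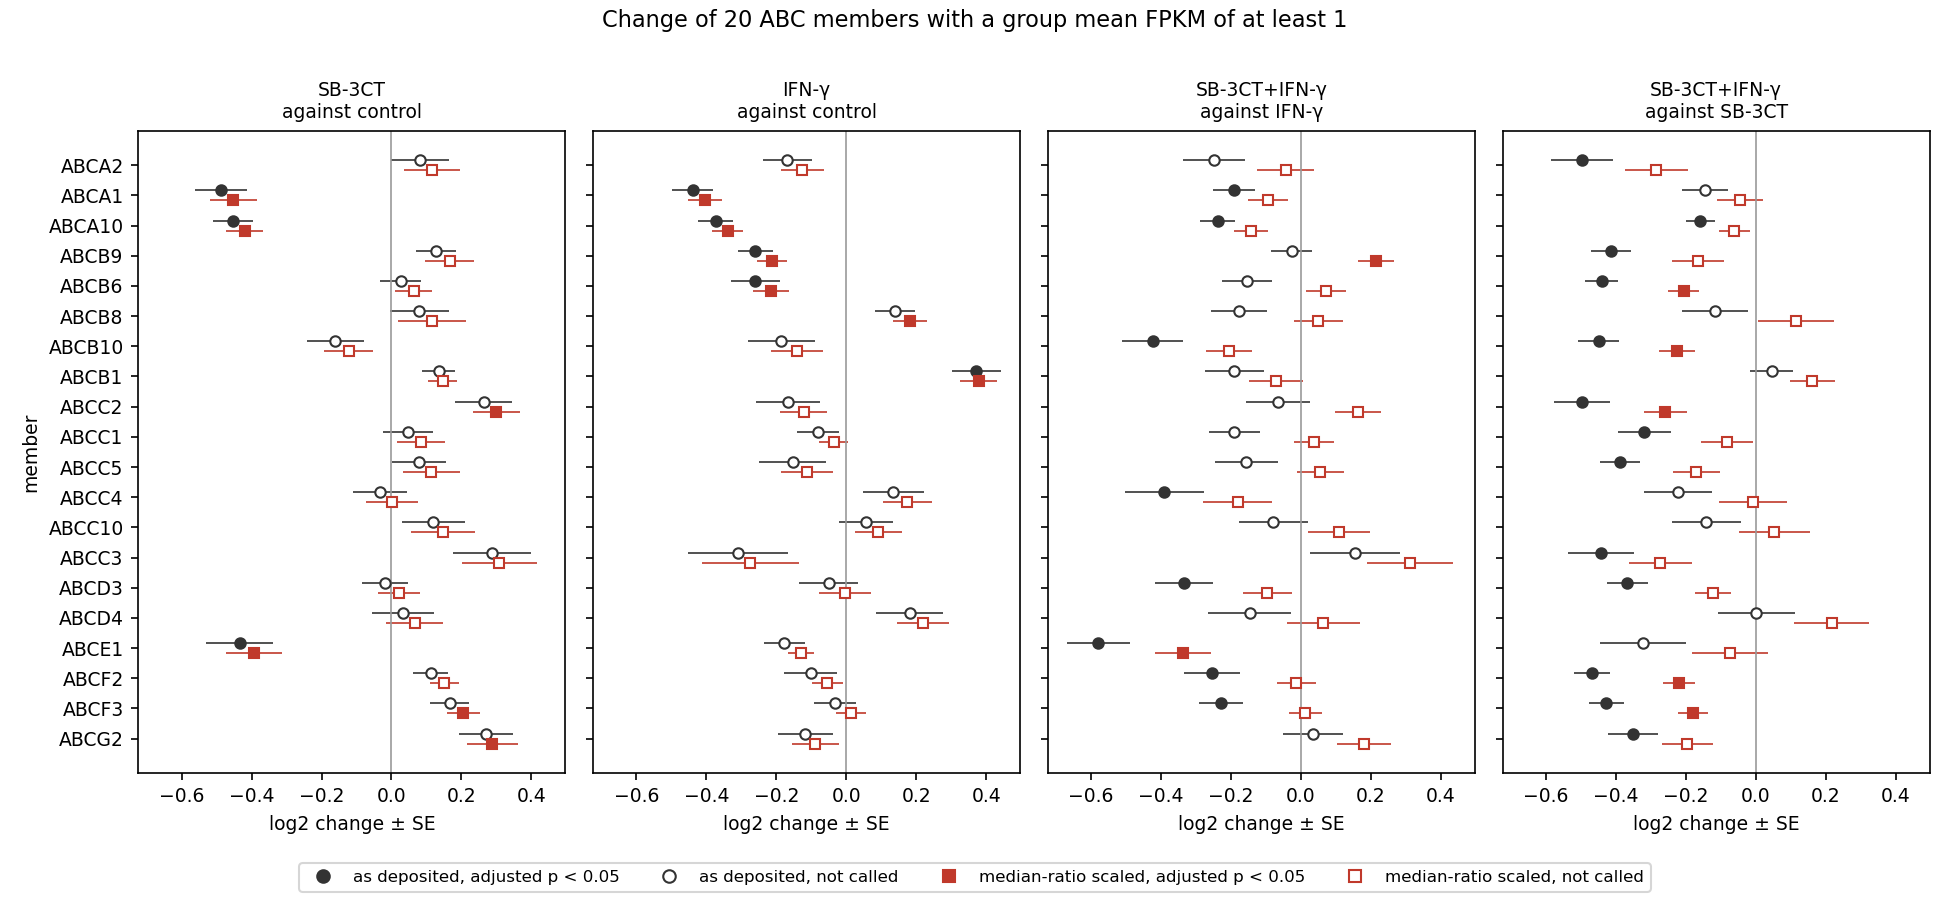
Change of 20 members that averaged 1 FPKM or more in some group, as the difference of mean log2(FPKM + 1) with its SE, in 4 comparisons; black circles are values as deposited, red squares values after median-ratio scaling, and filled symbols have an adjusted p under 0.05. The 2 scales nearly coincide in the panels against control and lie apart in both panels with SB-3CT+IFN-γ.

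Subfamily A, the lipid exporters, held the members that fell farthest against control as deposited. ABCA1, the cholesterol and phospholipid exporter, stood at 1.31, 1.34 and 1.53 FPKM in Control samples, 0.718, 0.594 and 0.809 with SB-3CT, 0.804, 0.698 and 0.783 with IFN-γ and 0.591, 0.595 and 0.444 with SB-3CT+IFN-γ. All 9 treated samples lay below the 3 controls, and the group with both agents lay below IFN-γ alone. With SB-3CT the mean FPKM fell by 49.2%, a log2 change of -0.49 (SE 0.07, adjusted p = 0.0128), and -0.45 (adjusted p = 0.0128) after scaling; leaving out any 1 control or the second SB-3CT sample lost the call, with adjusted p-values up to 0.0613. With IFN-γ it fell by 45.2%, a change of -0.44 (SE 0.06, adjusted p = 0.00455) that held in 6 of 6 fits without 1 sample. SB-3CT+IFN-γ against IFN-γ gave -0.19 (SE 0.06, adjusted p = 0.0403) as deposited and -0.09 (adjusted p = 0.255) after scaling, so this call rested on the scale. Against SB-3CT no call was made on either scale.

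ABCA10, a subfamily A member whose substrate is not settled, followed the same course. Its levels were 1.39, 1.33 and 1.24 FPKM in Control samples, 0.702, 0.690 and 0.689 with SB-3CT, 0.803, 0.760 and 0.808 with IFN-γ and 0.474, 0.502 and 0.579 with both agents, and no 2 of the 4 groups overlapped. With SB-3CT the mean FPKM fell by 47.4% (-0.45, SE 0.06, adjusted p = 0.00771) and IFN-γ gave -0.37 (SE 0.05, adjusted p = 0.00449), and each call held in 6 of 6 fits without 1 sample. Between SB-3CT+IFN-γ and IFN-γ the change was -0.24 (SE 0.05, adjusted p = 0.00958), and -0.14 (adjusted p = 0.0651) after scaling. ABCA10 lies in a cluster of related genes on chromosome 17 (hg19), where its annotated gene overlaps that of ABCA5. Both genes lie on the minus strand, so reads of the overlap could come from either. How such reads were counted is not given in the sources used here. ABCA5, a lysosomal member, had a mean of only 0.352 FPKM and was not called against control. Its group means were 0.448 FPKM in Control samples, 0.371 with SB-3CT, 0.352 with IFN-γ and 0.236 with both agents. SB-3CT+IFN-γ was called lower against IFN-γ and against SB-3CT as deposited, and neither call was kept after scaling. The other cluster members, ABCA6, ABCA8 and ABCA9, were at 0.0707 FPKM or less on average.

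ABCA2, a lysosomal lipid transporter and the most abundant member of subfamily A, was not called against control. It lay at 5.56, 4.93 and 5.34 FPKM in Control samples, 5.53, 5.21 and 6.20 with SB-3CT, 4.50, 4.41 and 4.84 with IFN-γ and 4.09, 3.39 and 3.64 with both agents. The last group lay below the other 9 samples, yet the change against SB-3CT was -0.50 (SE 0.09, adjusted p = 0.00684) as deposited and -0.28 (adjusted p = 0.069) after scaling. Over the 12 members of subfamily A, the median change was -0.03 with SB-3CT and -0.08 with IFN-γ, where that of all 4918 genes was -0.01 and -0.02.

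In subfamily B the full transporters ABCB1 and ABCB4 were called higher with IFN-γ as deposited, and the dimeric transporters ABCB6 and ABCB9 lower. ABCB8 and ABCB10, dimeric as well, were not called there, and ABCB8 was called higher after scaling. ABCB1, the drug pump P-glycoprotein, was at 0.564, 0.515 and 0.554 FPKM in Control samples, 0.728, 0.647 and 0.717 with SB-3CT, 1.20, 0.859 and 0.954 with IFN-γ and 0.779, 0.626 and 0.859 with both. All 9 treated samples were above the controls, and the IFN-γ samples were the 3 highest, although the lowest of them barely exceeded the top sample of SB-3CT+IFN-γ. IFN-γ raised the mean FPKM by 84.4%, a change of 0.37 (SE 0.07, adjusted p = 0.0148) and 0.38 (adjusted p = 0.00497) after scaling, with the call lost when any 1 control was left out (adjusted p up to 0.0596). SB-3CT alone gave 0.14 (SE 0.05, adjusted p = 0.103), not called.

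ABCB4, the phosphatidylcholine exporter known from bile formation, is the neighbour of ABCB1 on chromosome 7 (hg19, 87031012 to 87109751), with a gap of 22582 bases between them. It was far lower, at 0.214, 0.0509 and 0.137 FPKM in Control samples, 0.163, 0.244 and 0.235 with SB-3CT, 0.540, 0.419 and 0.515 with IFN-γ and 0.250, 0.298 and 0.396 with both. The IFN-γ samples lay above the 6 samples without IFN-γ, with a change against control of 0.40 (SE 0.06, adjusted p = 0.00734) that held in 6 of 6 fits without 1 sample. The closely related sequences of the pair could share reads, and how such reads were counted is not given in the sources used here. ABCB11, the bile salt pump, was also called higher with IFN-γ, but it was at 0.0936 FPKM or less in all 12 samples and at 0 in 6 of them. Of 6 fits without 1 sample, only 1 (without the second IFN-γ sample) kept that call. ABCB5 was listed at 0 in 9 samples and did not exceed 0.0246 FPKM in the others.

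ABCB9, a lysosomal peptide transporter related to TAP, ranked below only ABCE1 and ABCF2 in mean level. Its levels were 19.3, 19.2 and 19.4 FPKM in Control samples, 19.6, 21.3 and 22.7 with SB-3CT, 15.9, 15.1 and 16.9 with IFN-γ and 15.9, 15.3 and 15.8 with both. The 6 samples with IFN-γ lay below the 6 without it. IFN-γ changed it by -0.26 (SE 0.05, adjusted p = 0.016) against control and -0.21 (adjusted p = 0.0177) after scaling, and leaving out any 1 control lost the call (adjusted p up to 0.0655). In SB-3CT+IFN-γ against IFN-γ the value was -0.03 (SE 0.06, adjusted p = 0.763) as deposited and 0.21 (adjusted p = 0.0193) after scaling, which made it the 1 member called higher there. Against SB-3CT the change was -0.41 (SE 0.06, adjusted p = 0.00307), and -0.16 (adjusted p = 0.167) after scaling.

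Other dimeric transporters of subfamily B are linked to mitochondria. ABCB6, first described there as a porphyrin transporter, was at 9.40, 9.16 and 10.1 FPKM in Control samples, 9.92, 9.33 and 9.96 with SB-3CT, 8.49, 7.56 and 7.40 with IFN-γ and 7.02, 6.85 and 6.86 with both. Its 6 samples with IFN-γ all lay below its 6 samples without. The change with IFN-γ was -0.26 (SE 0.07, adjusted p = 0.0471), kept in 1 of 6 fits without 1 sample (that without the first IFN-γ sample) and otherwise lost at adjusted p-values up to 0.148, and in SB-3CT-treated cells it was -0.44 (SE 0.05, adjusted p = 0.00139), held in 6 of 6 and still -0.21 (adjusted p = 0.0208) after scaling. ABCB10, which takes part in haem synthesis, was at 7.79, 7.51 and 9.11 FPKM, 7.49, 7.02 and 6.96, 7.84, 6.56 and 6.70 and 4.74, 5.20 and 4.99 in the same order of groups. The group with both agents lay below the other 9 samples, with changes of -0.42 (SE 0.09, adjusted p = 0.00809) against IFN-γ and -0.45 (SE 0.06, adjusted p = 0.00248) against SB-3CT, of which only the second was kept after scaling (-0.22, adjusted p = 0.0269). ABCB8, a mitochondrial member, averaged 7.49 FPKM and was called in 1 comparison, higher with IFN-γ after scaling (0.18, adjusted p = 0.0431).

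In subfamily C, the multidrug resistance proteins, no member was called against control as deposited. ABCC2, an exporter of glucuronide and glutathione conjugates, was at 9.25, 10.1 and 9.56 FPKM in Control samples, 13.3, 10.9 and 11.2 with SB-3CT, 9.71, 7.59 and 8.23 with IFN-γ and 8.35, 7.89 and 7.90 with both. The SB-3CT samples were the 3 highest, 22.5% above the controls on average. Their change was 0.26 (SE 0.08, adjusted p = 0.076) as deposited and 0.30 (adjusted p = 0.034) after scaling, and SB-3CT+IFN-γ was lower than SB-3CT on both scales (-0.50, SE 0.08, adjusted p = 0.00469, and scaled -0.26, adjusted p = 0.0296). ABCC3, an exporter of bile salts and conjugates, was at 1.68, 2.18 and 1.65 FPKM, 2.63, 2.66 and 2.09, 1.19, 0.967 and 1.75 and 1.72, 1.44 and 1.47. Its SB-3CT change was similar in size, 0.29 (SE 0.11, adjusted p = 0.131), but the groups overlapped and it was not called on either scale. It fell in SB-3CT+IFN-γ against SB-3CT as deposited (-0.44, SE 0.09, adjusted p = 0.013) and not after scaling (-0.27, adjusted p = 0.0803).

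ABCC1, the founding multidrug resistance protein, lay between 7.41 and 10.8 FPKM in all 12 samples. It was at 9.41, 9.40 and 9.67 FPKM in Control samples, 9.78, 9.01 and 10.8 with SB-3CT, 9.20, 8.27 and 9.33 with IFN-γ and 8.15, 7.54 and 7.41 with both. ABCC4 and ABCC5, exporters of cyclic nucleotides and other organic anions, were lower than ABCC1, with means of 4.79 and 5.29 FPKM over the 12 samples. ABCC4 was at 5.02, 5.20 and 4.53 FPKM, 4.96, 4.85 and 4.52, 5.90, 4.88 and 5.72 and 3.39, 4.52 and 3.999 in the same order of groups. ABCC5 was at 5.24, 5.63 and 6.20 FPKM, 5.74, 6.27 and 6.17, 5.68, 4.62 and 4.77 and 4.49, 4.34 and 4.34. Each was called in 1 comparison with SB-3CT+IFN-γ as deposited and in none after scaling: ABCC1 against SB-3CT (-0.32, SE 0.08, adjusted p = 0.0183, and scaled -0.08, adjusted p = 0.487), ABCC5 against SB-3CT (-0.39, SE 0.06, adjusted p = 0.00363, and scaled -0.17, adjusted p = 0.12) and ABCC4 against IFN-γ (-0.39, SE 0.11, adjusted p = 0.0294, and scaled -0.18, adjusted p = 0.21). ABCC10, a broad drug exporter, averaged 2.79 FPKM and was called nowhere. ABCC6, at 0.278 FPKM on average, was called higher against SB-3CT on both scales, but it has 2 pseudogene copies whose reads could be confused with its own, 1 of which reached 0.936 FPKM. ABCC8 and ABCC11 averaged 0.00461 and 0.0280 FPKM. CFTR, which is ABCC7 by family numbering and no member by symbol, stayed at 0.0244 FPKM or less.

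Subfamily D is made up of dimeric transporters of peroxisomes and lysosomes. ABCD3, the most abundant peroxisomal member, was not called against control on either scale. It was at 15.2, 16.6 and 16.5 FPKM in Control samples, 17.0, 16.1 and 14.7 with SB-3CT, 15.5, 13.9 and 17.3 with IFN-γ and 11.9, 11.96 and 12.4 with both. The last group lay below the other 9 samples, at -0.33 (SE 0.08, adjusted p = 0.0166) against IFN-γ and -0.37 (SE 0.06, adjusted p = 0.00463) against SB-3CT, and neither call was kept after scaling (-0.10, adjusted p = 0.353 and -0.12, adjusted p = 0.144). ABCD4, which takes part in the lysosomal export of vitamin B12, averaged 4.36 FPKM and was called nowhere. ABCD2, a peroxisomal fatty acid carrier, was listed at 0 in 7 of 12 samples.

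ABCE1, the sole member of subfamily E, splits ribosomes into subunits after translation ends, and it had the highest mean over the 12 samples among the members. It led in the control and IFN-γ group means, while ABCF2 and ABCB9 had higher means in both groups with SB-3CT. It was at 26.0, 26.4 and 27.5 FPKM in Control samples, 23.0, 18.0 and 17.7 with SB-3CT, 25.3, 22.3 and 22.9 with IFN-γ and 13.8, 17.2 and 15.2 with both. SB-3CT groups lay below their counterparts without it in both states, with no overlap. Without IFN-γ the mean fell by 26.5% (-0.43, SE 0.10, adjusted p = 0.0323, and scaled -0.39, adjusted p = 0.025), but only the fit without the first SB-3CT sample kept that call, the other 5 giving adjusted p-values up to 0.131. With IFN-γ present it fell by 34.3% (-0.58, SE 0.09, adjusted p = 0.00335, and scaled -0.34, adjusted p = 0.0186), and 6 of 6 such fits kept it, while removing the length trend gave -0.23 (adjusted p = 0.0746). These comparisons share no sample. IFN-γ itself gave -0.18 (SE 0.06, adjusted p = 0.0829), not called.

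The abundant members of subfamily F, which bind ribosomes and whose roles in human cells are less settled, were not called against control as deposited. ABCF2 was at 20.8, 19.9 and 20.9 FPKM in Control samples, 23.2, 22.4 and 21.2 with SB-3CT, 21.0, 17.2 and 19.2 with IFN-γ and 16.5, 15.1 and 15.8 with both. ABCF3 was at 16.6, 16.0 and 17.9 FPKM, 19.7, 18.9 and 18.5, 17.1, 15.6 and 16.7 and 14.3, 14.3 and 13.1 in the same order. In both genes the 3 SB-3CT samples were above the controls and the 3 with both agents were below the other 9. With SB-3CT alone the change of ABCF3 was 0.17 (SE 0.06, adjusted p = 0.0948) as deposited and 0.21 (adjusted p = 0.0356) after scaling, and that of ABCF2 was 0.11 (SE 0.05, adjusted p = 0.183) and 0.15 (adjusted p = 0.0563). Against SB-3CT both fell on both scales, with -0.47 (SE 0.05, adjusted p = 0.00139) for ABCF2 (scaled -0.22, adjusted p = 0.0199) and -0.43 (SE 0.05, adjusted p = 0.00173) for ABCF3 (scaled -0.18, adjusted p = 0.0316). ABCF1, the translation initiation member, averaged only 0.655 FPKM. It lies in a stretch of chromosome 6 that was chosen after its level was seen, where the 14 protein-coding genes analysed, with start positions from 30539170 to 33286335 (hg19), had a median of 0.231 FPKM and none reached 10, against 33.7% of 4472 other protein-coding genes. BAG6 (0.192 FPKM), CSNK2B (0.269) and DDX39B (0.0712), which serve functions of every cell, were among them. DAXX (4.99), ATF6B (3.79), DDR1 (3.74), AGPAT1 (1.93) and BRD2 (1.28) were higher, and the 14 include ABCF1 itself. The level of ABCF1 is therefore uncertain, and the cause of the low levels was not tested.

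**Figure D3:**
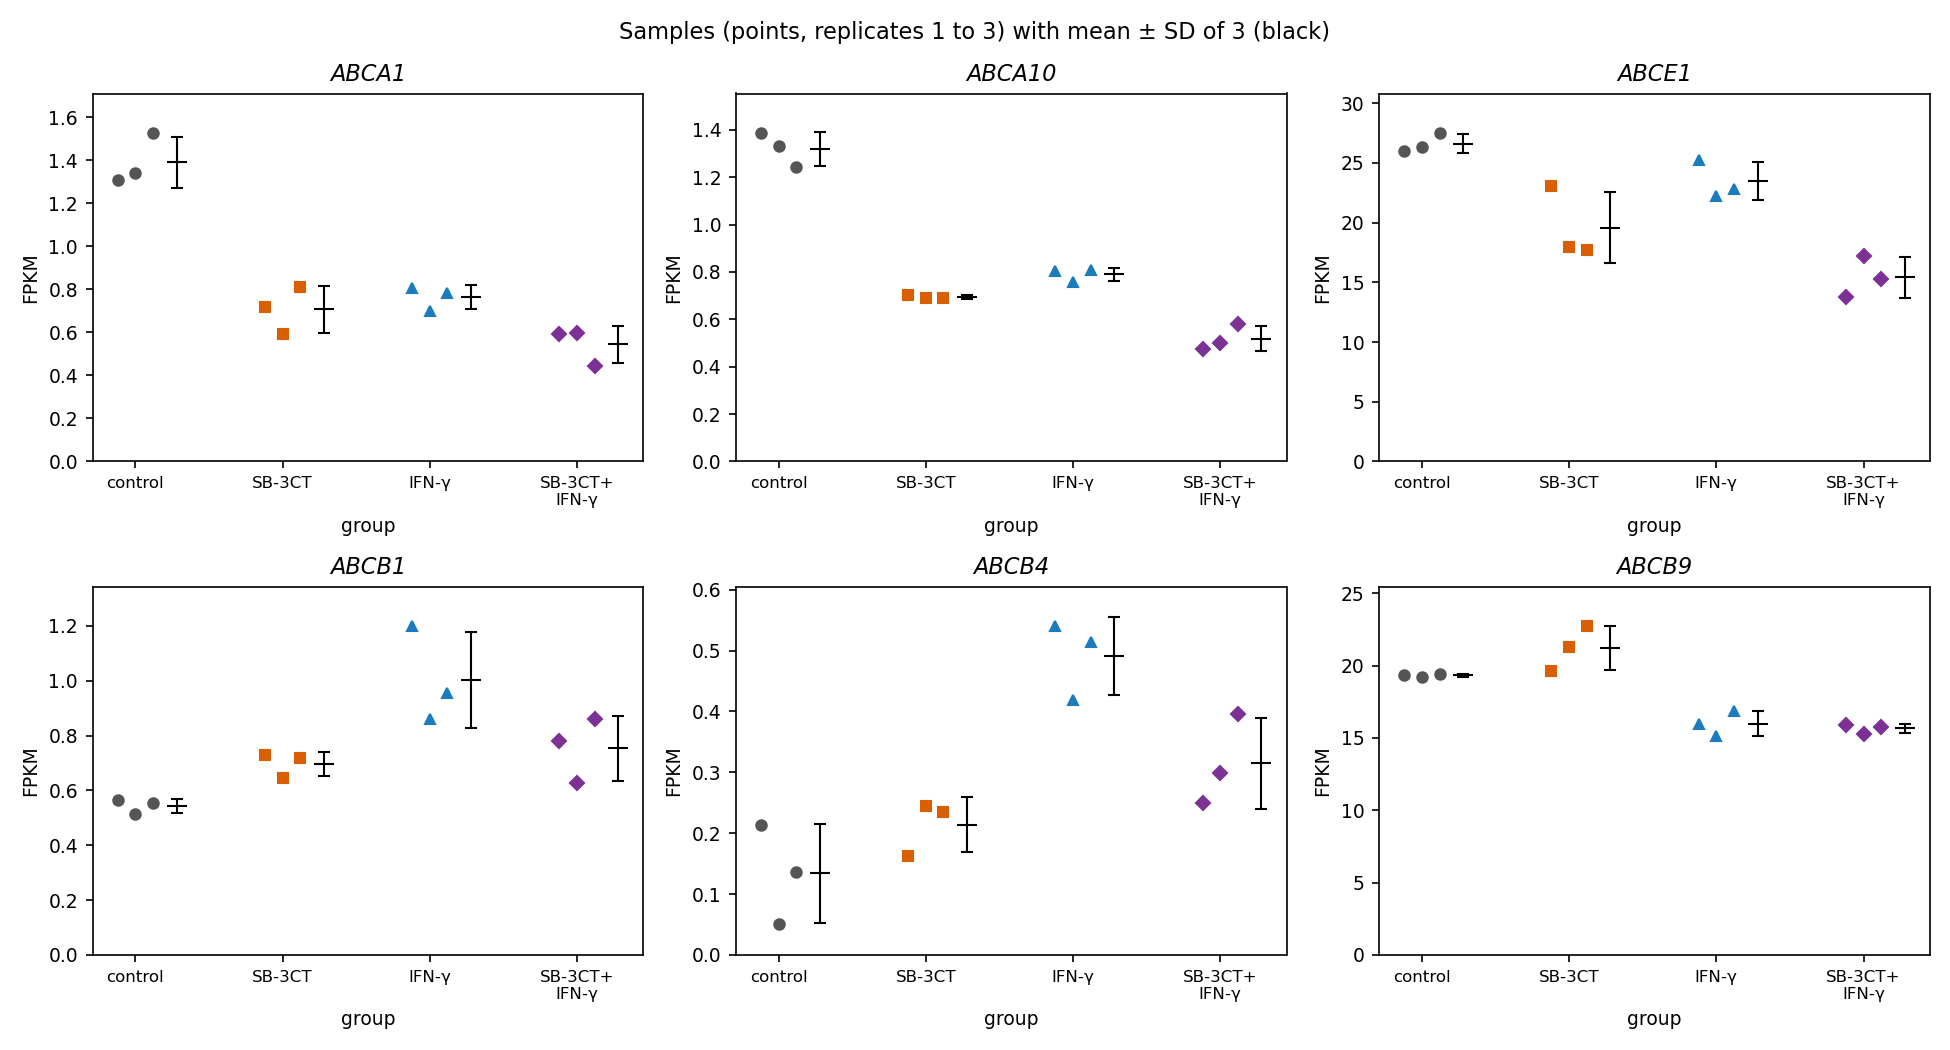
FPKM of ABCA1, ABCA10, ABCE1, ABCB1, ABCB4 and ABCB9 in each of the 12 samples (points, replicates 1 to 3 from left to right in each group), with the mean and SD of 3 samples in black; each vertical axis starts at 0. ABCA1 and ABCA10 were lower in all 9 treated samples than in the controls, and ABCB9 was lower in the 6 samples with IFN-γ than in the 6 without.

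In subfamily G, ABCG2, the drug and urate exporter, was the 1 member that averaged 1 FPKM or more. It was at 1.46, 1.46 and 1.23 FPKM in Control samples, 1.90, 1.95 and 1.76 with SB-3CT, 1.39, 1.11 and 1.09 with IFN-γ and 1.21, 1.13 and 1.41 with both. The 3 SB-3CT samples were the highest of the 12, 35.2% above the controls on average, with a change of 0.27 (SE 0.08, adjusted p = 0.0635) as deposited and 0.29 (adjusted p = 0.0446) after scaling. SB-3CT+IFN-γ lay below SB-3CT (-0.35, SE 0.07, adjusted p = 0.0114), a call that scaling lost (-0.20, adjusted p = 0.112). ABCG1, a sterol exporter that works beside ABCA1, was low, between 0.259 and 0.471 FPKM in the controls and between 0.0277 and 0.124 with IFN-γ. It was called lower with IFN-γ (-0.30, SE 0.07, adjusted p = 0.0267), and the call was lost without control 3 or any 1 IFN-γ sample (adjusted p up to 0.0815). In SB-3CT-treated cells it was lower on both scales (-0.25, SE 0.05, adjusted p = 0.0112, and scaled -0.21, adjusted p = 0.0379). ABCG4, related to ABCG1, was at 0.0609 FPKM on average and was called lower in the same comparisons as deposited. ABCG5, the partner of ABCG8 in sterol excretion, was at 0.0529.

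The change with SB-3CT differed between cells without and with IFN-γ in 6 members as deposited, where 4.74% of all genes differed upward and 17.6% downward. ABCA1 and ABCA10 fell less in the presence of IFN-γ than in its absence, by differences of 0.29 (SE 0.09, adjusted p = 0.0408) and 0.22 (SE 0.07, adjusted p = 0.0381). After scaling these were 0.36 (adjusted p = 0.0207) and 0.28 (adjusted p = 0.0177), and they were the 2 members still called, with 7.81% of all genes then upward and 5.23% downward. Both were weak: with a pseudocount of 0.1 in place of 1 the adjusted p-values were 0.161 and 0.249, and 3 and 2 of 12 fits without 1 sample kept the calls. ABCB1, ABCB4, ABCF2 and ABCF3 differed downward as deposited. For ABCF3 the difference was -0.39 (SE 0.08, adjusted p = 0.00841), kept in 12 of 12 fits without 1 sample, and -0.19 (adjusted p = 0.0661) after scaling. For ABCF2 it was -0.37 (SE 0.09, adjusted p = 0.0197), and -0.16 (adjusted p = 0.134) after scaling. ABCB1 gave -0.33 (SE 0.10, adjusted p = 0.0331) and ABCB4 -0.28 (SE 0.08, adjusted p = 0.0323), and after scaling -0.22 (adjusted p = 0.127) and -0.22 (adjusted p = 0.11). ABCE1 showed no difference between the states that was called (-0.14, SE 0.14, adjusted p = 0.508). The plot of both SB-3CT changes shows the shift of most members below the diagonal as deposited, and a smaller one after scaling.

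**Figure D4:**
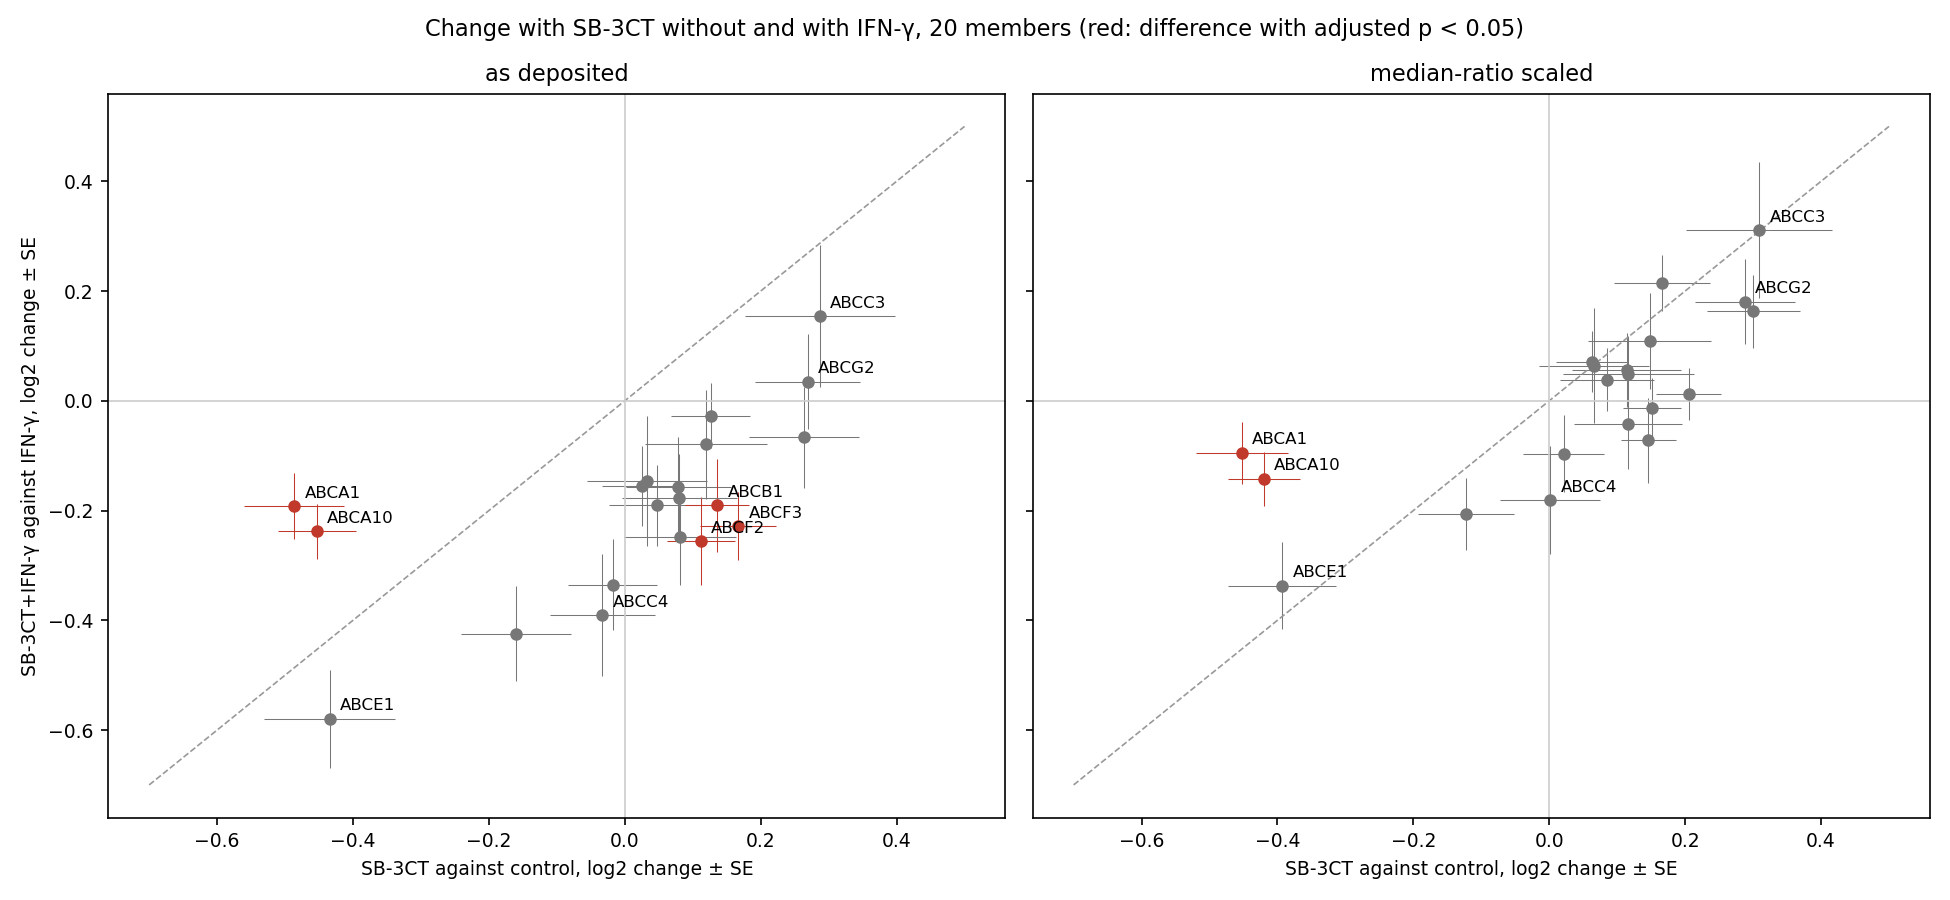
Log2 change with SB-3CT in cells without IFN-γ (horizontal axis) and with IFN-γ (vertical axis), each with its SE, for 20 members that averaged 1 FPKM or more in some group, as deposited (left) and after median-ratio scaling (right); the dashed line marks equal changes, and red points are members whose 2 changes differed with an adjusted p under 0.05. On both scales ABCA1 and ABCA10 lie above the dashed line, while ABCB1, ABCF2 and ABCF3 are red on the left only.

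Many of the remaining members were low. Among the 42, 18 had a mean under 0.5 FPKM and 13 under 0.1, and 32 were above 0 in all 12 samples. ABCA12, a lipid transporter of the skin barrier, and ABCA13 averaged 0.0800 and 0.0812 FPKM and were called lower in SB-3CT+IFN-γ than in SB-3CT on both scales, with changes of -0.09 and -0.10. ABCA7, a phospholipid transporter, averaged 0.728 FPKM and ABCA3, the surfactant lipid transporter of lung, 0.179, and neither was called. ABCA4, the retinal transporter, was listed at 0 in 9 samples. At such levels a change rests on few fragments, and how few is unknown.

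Genes linked to the members by function were taken from lists written by hand. Beside all counts of lists here and below stand the shares of all genes, 5.37% higher and 6.87% lower with SB-3CT and 8.46% and 11% with IFN-γ. For SB-3CT+IFN-γ against IFN-γ they were 6.41% and 31.5%, and 16.5% and 15.5% after scaling. Whether a list differed from these shares was not tested. Of 14 lipid efflux partners, 1 was called with SB-3CT, CLU, which rose (0.47, SE 0.10, adjusted p = 0.0288, scaled 0.50). With IFN-γ 2 were called, both lower. Against IFN-γ alone, SB-3CT+IFN-γ gave 2 higher, among them APOE (0.47, SE 0.10, adjusted p = 0.0088, scaled 0.69), and 3 lower, and after scaling 5 higher and 2 lower. Of 19 peroxisomal fatty acid genes, the partners of subfamily D, 4 were called with SB-3CT, all lower, and 2 rose and 3 fell with IFN-γ. AMACR, an enzyme of branched-chain fatty acid breakdown, fell with SB-3CT (-0.73, SE 0.05, adjusted p = 0.000908, scaled -0.69) and with IFN-γ (-0.73, SE 0.08, adjusted p = 0.00175, scaled -0.68). ACSL1, which activates long-chain fatty acids, rose with IFN-γ (0.98, SE 0.08, adjusted p = 0.000618, scaled 1.01). In SB-3CT+IFN-γ against IFN-γ 1 was higher and 8 were lower, and after scaling 5 and 6.

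Of 31 genes listed beside subfamilies E and F, 3 rose and 4 fell with SB-3CT, EIF3E the farthest (-0.50, SE 0.08, adjusted p = 0.0168, scaled -0.46). The list was written for ribosome recycling and initiation, but it also holds elongation factor and kinase genes, which are not all partners of these members. With IFN-γ 1 rose, the interferon-induced kinase gene EIF2AK2 (1.21, SE 0.08, adjusted p = 0.000324, scaled 1.25), and 7 fell. In SB-3CT+IFN-γ against IFN-γ 1 was higher and 18 were lower, and after scaling 6 and 7. EIF5B, which joins ribosomal subunits, was among those lower on both scales (-0.96, SE 0.11, adjusted p = 0.00207, scaled -0.72). Of 19 haem and iron-sulfur genes, 3 were called with SB-3CT, all higher, led by ALAS1, the first enzyme of haem synthesis (0.95, SE 0.05, adjusted p = 0.000176, scaled 0.99). With IFN-γ 1 rose and 3 fell, and in SB-3CT+IFN-γ against IFN-γ 7 were higher and 4 lower, and after scaling 10 were called, all higher. ABCB6, ABCB8 and ABCB10 were not called with SB-3CT on either scale. Of 26 drug metabolism genes, 8 rose and 1 fell with SB-3CT, CYP1A1 (1.01, SE 0.07, adjusted p = 0.00085, scaled 1.04) and AKR1C1 (0.90, SE 0.08, adjusted p = 0.00201, scaled 0.94) the farthest. With IFN-γ 1 rose and 4 fell, and against IFN-γ alone SB-3CT+IFN-γ gave 6 higher and 3 lower, or 10 and 1 after scaling.

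P-type ATPases, the other large set of pumps driven by ATP, served for comparison with 36 genes. With SB-3CT 5 were called, all lower, and with IFN-γ 7 rose and 3 fell, with ATP10A, a lipid flippase, the farthest (1.58, SE 0.08, adjusted p = 0.000102, scaled 1.58). In SB-3CT+IFN-γ against IFN-γ, where 6.41% of all genes rose and 31.5% fell, 16 were called, all lower. After scaling 1 was higher and 13 lower, where the ABC members gave 1 and 1 and all genes 16.5% and 15.5%. ATP13A3, a polyamine transporter, was among those lower on both scales (-0.86, SE 0.08, adjusted p = 0.00194, scaled -0.63). The difference between the families was not tested. Against SB-3CT the counts were 2 and 14 as deposited and 5 and 6 after scaling. The shares of all genes there were 7.85% and 32.7%, and 13.7% and 10.2% after scaling.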

How the data were processed

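RNA from 12 samples of A375 cells, 3 in each of 4 groups, was sequenced. Per the submitters' processing notes and the methods of the study, the authors aligned reads to hg19 with HISAT2 2.0.5 and computed FPKM with StringTie 1.3.3. The deposited values fit log2(FPKM + 1), although the log2 step is not stated by the authors, and were used as such. The planned tests assumed untransformed FPKM, and their logarithm step was dropped. FPKM was recovered as 2 to the power of the value minus 1, and 0 columns of values were left unused. Strand use is not given in the sources used here, and no read counts were at hand.

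Each comparison used limma (version 3.58.1, under R version 4.3.3; lmFit, then eBayes with trend, two-sided) on the 3 + 3 samples of each comparison, and the difference of the SB-3CT changes over all 12 samples, with Benjamini-Hochberg adjustment over 4918 genes. An exact permutation test of 3 against 3 samples cannot go below 0.1. The functions were tested on simulated data. The results of some single genes are not reported here, although counts and sums over members include them. Values per sample were given for members with a group mean FPKM of at least 1 that were called in some comparison as deposited, and for ABCB4, which was chosen after its values were seen. List genes named were among the 2 with the largest changes, a mean FPKM of at least 1 and a call. The members and the hand-written lists (lipid efflux, peroxisomal, ribosome, haem and iron-sulfur, drug metabolism, P-type ATPases) were chosen with earlier results of these data known. Positions and lengths came from GENCODE release 44 mapped to hg19, where 99.1% of symbols had a length (417 through an older symbol), and promoters from RefSeq. Alternatives were a pseudocount of 0.1, a minimum mean FPKM of 1, median-ratio scaling, quantile normalization, removal of the length trend (lowess, span 0.5) with summed FPKM kept, 1 fit of all groups, a replicate block, a per-gene equal-variance test, a fold change over 1.5 with unadjusted p under 0.05, and leaving out each sample.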

Additional observations from a re-analysis of the deposited data

Results flagged for a closer look

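The members below were marked because their change with SB-3CT differed between cells with and without IFN-γ by the interaction term over all 12 samples (change with IFN-γ present minus change without, log2 scale). The differences were 0.29 for ABCA1, 0.22 for ABCA10, -0.33 for ABCB1, -0.28 for ABCB4, -0.37 for ABCF2 and -0.39 for ABCF3. After median-ratio scaling ABCA1 and ABCA10 were still called, and the 4 others were not.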

How the results depend on the processing

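Counts of members called in either direction were, as deposited, 3 (SB-3CT against control), 10 (IFN-γ against control), 11 (SB-3CT+IFN-γ against IFN-γ), 21 (against SB-3CT) and 6 (difference of the SB-3CT changes). In that order they were 6, 12, 2, 10 and 2 with median-ratio scaling, 8, 18, 5, 10 and 3 with the length trend removed, and 0 in all 5 at a fold change over 1.5 on the log2(FPKM + 1) scale with an unadjusted p under 0.05; counts at an unadjusted p under 0.05 alone were 8, 15, 15, 23 and 15. Quantile normalization gave 7 for SB-3CT, 3 and 13 for SB-3CT+IFN-γ against IFN-γ and SB-3CT, and 2 for the difference. A minimum mean FPKM of 1 gave 5 with SB-3CT and 6 with IFN-γ, a pseudocount of 0.1 gave 2 for the difference, and the per-gene test gave 1 with SB-3CT and 6 for SB-3CT+IFN-γ against IFN-γ. Leaving out 1 sample gave 1 to 4, 4 to 8, 4 to 13, 15 to 18 and 1 to 9; the count with SB-3CT was 1 without any 1 control or SB-3CT 2. With IFN-γ it was 4 without control 3 and 6 without control 2 or IFN-γ 3. Against IFN-γ it was 4 without IFN-γ 3, 5 without IFN-γ 1 or SB-3CT+IFN-γ 2 or 3, and 6 without SB-3CT+IFN-γ 1. For the difference it was 1 without control 2, 2 without IFN-γ 1 or 3, and 3 without control 3 or SB-3CT+IFN-γ 2. Of 48 calls of single members reported here, 24 were kept, 23 lost and 1 turned by scaling, and 24, 21 and 3 by removing the length trend. In SB-3CT+IFN-γ against IFN-γ, ABCF3 turned to 0.0120 with scaling, and without the length trend ABCA1 turned to 0.0446, ABCC4 to 0.0117 and ABCF2 to 0.14; the cause was not tested.

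Samples with the same replicate number did not deviate together (correlations of -0.39 to 0.17), so the numbers were not taken as pairs. With the replicate number as a block, 31 of 48 calls were kept, and the count for SB-3CT+IFN-γ against IFN-γ was 6. Unknown absolute depth limits what can be said of the members under 0.1 FPKM.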
